A study of Rattus norvegicus with 12 samples.

Results

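The 9 genes described here regulate how long messenger RNAs last: Zfp36, Zfp36l1, Zfp36l2, Zc3h12a, Btg1, Btg2, Tob1, Tob2 and Tent5c. They were chosen by name, with earlier results of these data known. A probe set was assigned to a gene where the array annotation gives exactly 1 symbol for it. By that rule 8 of the 9 genes were measured, with 10 of the 31099 probe sets on the array, and Btg2 was not analysed here. Of these genes, 7 have 1 probe set each and Zfp36l2 has 3. All 8 genes passed the filter on dim probe sets.

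The arrays measured total RNA of primary aortic smooth muscle cells from newborn rats that had been kept overnight without serum. Stimulated cells received thrombin at 2 U/ml, the receptor-activating peptide TRAP at 25 µM, or TRAP at 25 µM following 24 h in 200 ng/ml pertussis toxin (PTX), and each stimulus lasted 120 min. Each stimulated group has its own unstimulated (basal) group, so 3 experiments give 6 groups of 2 arrays, 12 in all. Thrombin is a clotting protease that activates its receptors by cutting them, TRAP stands in for the end that the cut exposes, and PTX uncouples receptors from Gi proteins; the design asks how these treatments change transcription and what PTX alters. The basal cells carry no agent in the labels, and for those of the PTX experiment it is not stated whether they had PTX. Nothing in the labels states that replicates are independent cultures; the spread that the p-values rest on is that between these arrays, which may be technical.

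Messenger RNAs usually begin to decay when their poly(A) tail is shortened, largely by the CCR4-NOT deadenylase complex. Zfp36 (tristetraprolin, TTP), Zfp36l1 and Zfp36l2 are zinc-finger proteins that bind AU-rich elements and bring this complex to cytokine, growth factor and early-response transcripts, and Btg and Tob proteins bind its catalytic subunits directly. Zc3h12a (Regnase-1) instead cuts inflammatory transcripts at stem-loops, and Tent5c works in the opposite direction, as a poly(A) polymerase that lengthens tails.

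At 120 min each of the 3 Zfp36 genes rose in at least 2 of the 3 responses and Tent5c fell in all 3, while Btg1, Tob1 and Tob2 did not pass the test in any response. Zfp36 and Zfp36l2 rose in all 3 experiments, by 1.93 to 3.42 times for Zfp36. Zfp36l1 rose in both experiments with TRAP and was at 0.03 with thrombin on the log2 scale. Its response to thrombin differed from its response to TRAP by a test of that difference, a call lost under several other settings. Zc3h12a rose in the average of the 3 responses and in no single one in the main fit, although some other settings called single responses. Changes are differences of log2(signal + 16), stimulated minus own basal arrays, which understates the change of dim genes. They were tested in limma, with Benjamini-Hochberg adjustment over all 18625 kept probe sets and a threshold of 0.05.

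The cultures carried strong smooth muscle signal, with Acta2 (smooth muscle actin) at a mean of 7221 over the 12 arrays, Tagln at 5561 and Cnn1 at 1668, although Myh11 and Des were dim at 50.7 and 28.9. The endothelial markers Pecam1, Vwf and Kdr averaged 4.24, 7.13 and 6.79, and the leukocyte markers Ptprc and Itgam 4.28 and 1.88. The endothelial marker Tek averaged 45.4. Of the 5 fibroblast markers, Mfap5 averaged 5431, Dcn 1720 and Pdgfra 239.0, while Lum averaged 98.2 and Dpt 16.2. Marker signals were summed for each of 5 cell types and compared in each of the 3 experiments. The sums did not overlap between stimulated and basal arrays in 4 cases. With 2 arrays a group, a lack of overlap is common even without a change. All 7 smooth muscle markers summed to 11705 to 13452 with thrombin and 9802 to 10304 in basal cells, and the 3 measured of 5 Schwann cell markers to 138.1 to 141.2 with thrombin and 173.1 to 251.8 in basal cells. The 5 leukocyte markers, most of whose signal was Cd14 (mean 408.5), summed to 420.1 to 445.1 with TRAP and 330.9 to 348 in basal cells. The 4 measured of 5 endothelial markers summed to 34.8 to 50.2 with TRAP after PTX and 68.2 to 72.9 in basal cells. The part of these sums in the results was not tested. The array medians ran between 39.7 and 53.6, and replicate arrays correlated at 0.983 to 0.991 over kept probe sets. Some arrays of the TRAP experiments stood apart from the rest of their group. Saa3, an acute-phase gene, read 222.5 on TRAP replicate 1 and 22.8 on TRAP replicate 2, against 18.1 and 15.9 in the basal arrays of that experiment. It read 20.3 on TRAP after PTX replicate 1 and 237.8 on replicate 2, against 420.9 and 374.6 in its basal arrays. Replicate 1 of both stimulated groups thus lay with the basal arrays of the other experiment. Results of those experiments are therefore also given with this set of arrays as a block and without these 2 (outside) arrays. What the sets stand for was not tested, nor was whether these 2 arrays were exchanged, which would touch every value of the TRAP and TRAP after PTX responses.

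The 8 measured genes were chosen with earlier results of these data known, so the shares of all genes give scale and are no test. Of the 8 genes, 2 rose and 1 fell with thrombin, where 2.97% of the 9906 genes tested rose and 2.65% fell. With TRAP, 3 rose and 1 fell, against 2.15% and 1.81% of all genes. With TRAP after PTX, again 3 rose and 1 fell, where 1.69% of all genes rose and 1.27% fell. In the average of the 3 responses, which draws on all 12 arrays, 4 rose and 1 fell, beside 5.8% and 8.98% of all genes. Without the 2 outside arrays, 4 regulators were called in each single response and 5 in the average, where 5.58% of all genes were called with thrombin, 2.69% with TRAP, 1.12% with TRAP after PTX and 10.4% in the average. The median change over the 8 genes was 0.11 with thrombin, 0.41 with TRAP, 0.29 with TRAP after PTX and 0.39 on average, while the median over all genes lay at -0.06, -0.03, -0.04 and -0.05.

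**Figure D1:**
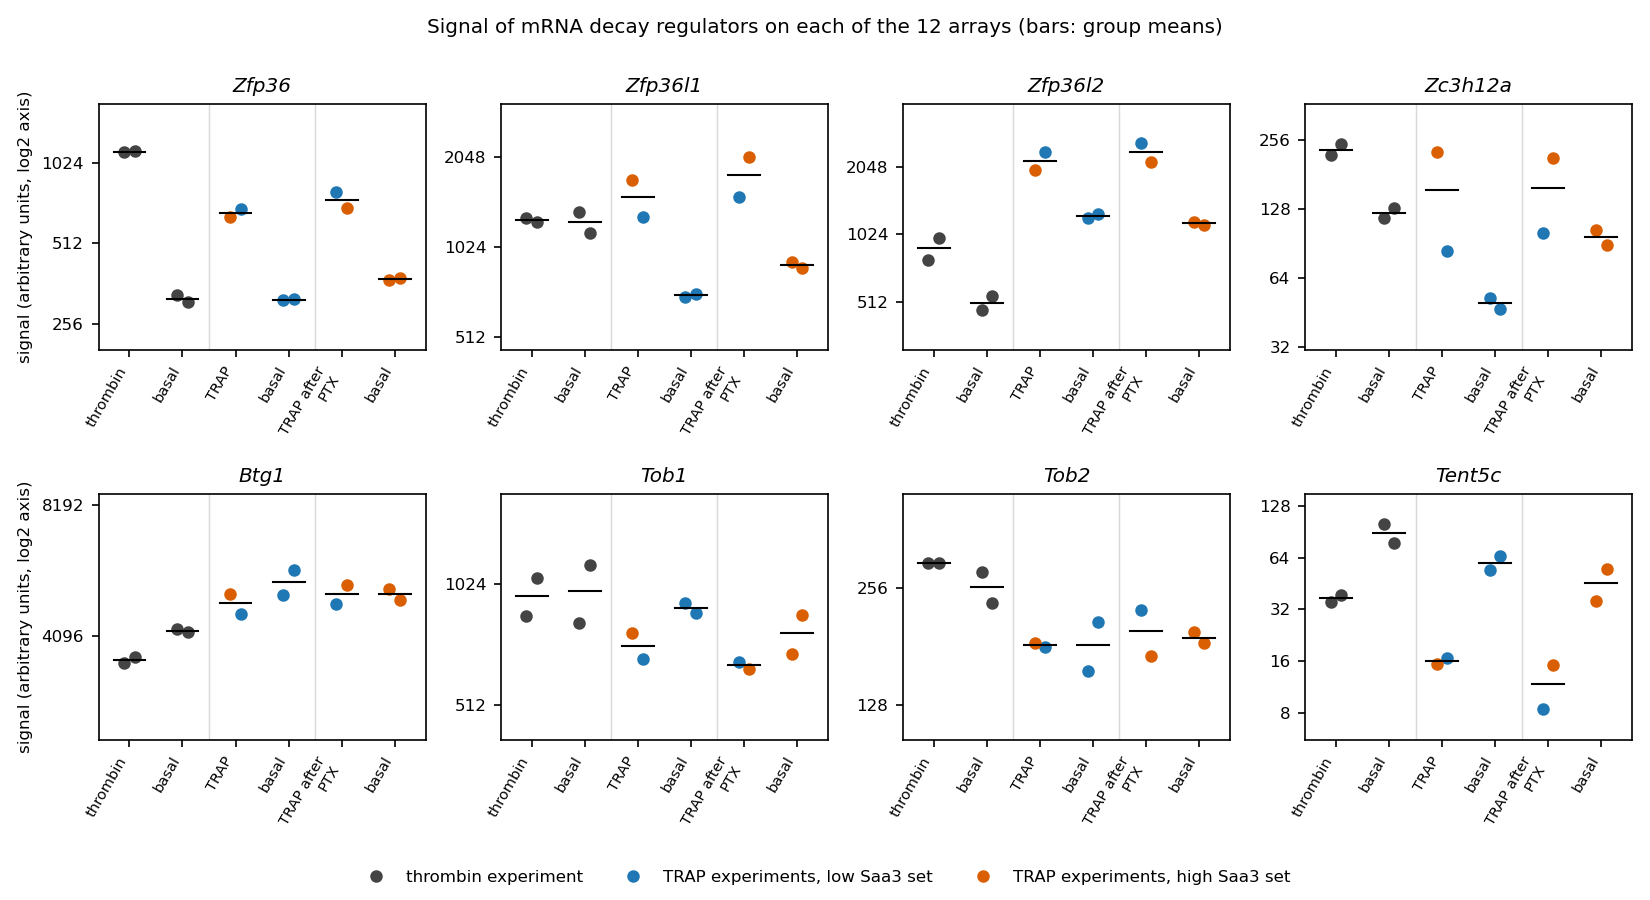
Signal (arbitrary units, log2 axis) of each measured regulator on each of the 12 arrays, with stimulated groups left of their own basal groups; points are arrays and bars are group means. Zfp36 and Zfp36l2 lie above basal in every experiment and Tent5c lies below it, while the stimulated Btg1, Tob1 and Tob2 arrays stay close to their basal ones.

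Promoters of the 3 Zfp36 genes are shown because these genes rose, and so that the sequence at their starts can be set beside their different responses. They are RefSeq sequences of the GRCr8 rat assembly, 250 bases before to 50 bases after the annotated start, and 7 of the 8 measured genes were matched by symbol. Each was searched on both strands for TGACGTCA (the cyclic AMP response element, CRE), the shorter TGACG, which lies within the CRE, TGANTCA (AP-1), GCGNGGGCG (EGR), the CArG box of serum response factor and the NF-kB motif. Capitals mark the matches.
Zfp36, chr1:92799059-92799358, minus strand: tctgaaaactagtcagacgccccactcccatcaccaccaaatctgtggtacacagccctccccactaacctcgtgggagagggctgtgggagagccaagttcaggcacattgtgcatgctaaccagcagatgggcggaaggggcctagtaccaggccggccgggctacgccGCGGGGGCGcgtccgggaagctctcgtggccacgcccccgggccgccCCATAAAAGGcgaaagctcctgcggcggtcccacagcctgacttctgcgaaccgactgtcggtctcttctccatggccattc
Zfp36l1, chr6:104668641-104668940, minus strand: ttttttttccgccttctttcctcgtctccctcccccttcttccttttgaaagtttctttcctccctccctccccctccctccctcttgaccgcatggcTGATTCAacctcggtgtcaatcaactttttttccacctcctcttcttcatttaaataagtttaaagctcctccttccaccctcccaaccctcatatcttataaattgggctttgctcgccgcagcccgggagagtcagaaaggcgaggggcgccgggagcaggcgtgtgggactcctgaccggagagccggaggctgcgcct
Zfp36l2, chr6:16242372-16242671, plus strand: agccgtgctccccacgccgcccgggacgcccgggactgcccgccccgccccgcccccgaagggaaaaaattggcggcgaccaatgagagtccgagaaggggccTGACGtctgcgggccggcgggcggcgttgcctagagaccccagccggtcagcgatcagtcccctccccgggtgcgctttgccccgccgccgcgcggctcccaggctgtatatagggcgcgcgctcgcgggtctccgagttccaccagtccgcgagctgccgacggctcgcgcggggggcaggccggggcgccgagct
The Zfp36 window holds an EGR match at -79 to -71 and a CArG box at -32 to -23, counted from the start at 1 with no position 0. Of all 33469 promoters of this length, 4.98% hold an EGR match and 1.64% a CArG box. The Zfp36l1 window holds an AP-1 match at -152 to -146, as 7.33% of all promoters do. The Zfp36l2 window, with a GC content of 75.3%, holds a TGACG at -147 to -143, which 21.2% of promoters share. Zc3h12a has 2 such matches, on the minus strand at -49 to -45 and at 1 to 5, and Tob2 has 1. Btg1 holds an EGR match and Tob1 an NF-kB match, which is present in 7.51% of promoters, and the full CRE, present in 1.83%, was in none of the 7 windows. These are matches of letters only.

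Zfp36, the founding member of its family and long known as an early-response gene of growth factor stimulation, gave the clearest rise. Its signal was 1122.3 and 1131.4 with thrombin, against 328.7 and 308.1 in basal cells. With TRAP it was 641.7 and 686.6, against 313.9 and 317.3. With TRAP after PTX it was 795.2 and 696.0, against 374.9 and 380.1. Every stimulated array lay above every basal array of all 3 experiments, and the basal arrays were within 308.1 to 380.1. The log2 change was 1.77 ± 0.10 with thrombin (SE, n = 2 against 2, adjusted p = 2.82e-07), 1.04 ± 0.10 with TRAP (adjusted p = 4.65e-05) and 0.95 ± 0.10 with TRAP after PTX (adjusted p = 0.000127). In bulk RNA, a change in how many cells express a gene and a change in its RNA per cell cannot be told apart.

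The response of Zfp36 to thrombin exceeded that to TRAP by 0.74 ± 0.14 on the log2 scale (95% interval 0.44 to 1.03, adjusted p = 0.0275 by limma's interaction term). The thrombin and TRAP experiments have separate basal arrays, so this is a difference of 2 changes. It missed the threshold in 8 of the 12 fits that each left out 1 array, with adjusted p-values up to 0.134 and a value between 0.69 and 0.79. It was also lost without the 2 arrays that lay with the other experiment, where it was 0.69 (adjusted p = 0.0839). One concentration of each agonist was used, so the responses are not matched for receptor activation.

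Zfp36l1, a paralog that destabilises growth factor and cell cycle transcripts, did not follow the same pattern across experiments. With thrombin its signal was 1283.5 and 1241.7, against 1342.8 and 1140.3 in basal cells, so the groups overlapped. With TRAP it was 1723.7 and 1297.1, against 696.8 and 714.6. In the PTX experiment stimulated cells gave 1511.2 and 2059.4, against 912.6 and 873.8, again without overlap. The log2 change with thrombin was 0.03 ± 0.15, with a 95% interval of -0.29 to 0.35 (adjusted p = 0.948). It rose by 1.07 ± 0.15 with TRAP (adjusted p = 0.00108) and by 0.97 ± 0.15 with TRAP after PTX (adjusted p = 0.00304).

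The Zfp36l1 response to thrombin was below that to TRAP by a log2 difference of -1.04 ± 0.21 (95% interval -1.49 to -0.59, adjusted p = 0.0457 by limma's interaction term). The stimulated levels were within 1241.7 to 1723.7 in both experiments, and the basal levels were the ones that stood further apart, with 1342.8 and 1140.3 before thrombin and 696.8 and 714.6 before TRAP. Leaving out 1 array ended the call in 8 of 12 fits, with adjusted p-values up to 0.198 and a value of -0.84 without TRAP replicate 1. With the array sets as a block the difference was -0.83 (adjusted p = 0.0157), and without the 2 outside arrays it was -0.84. For the thrombin minus TRAP contrast 1 of the 8 regulators was called higher (Zfp36) and 1 lower (Zfp36l1), where 0.252% and 0.262% of all genes were.

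Zfp36l2, the third paralog, moved by a like amount in each experiment while its basal level varied. Its brightest probe set gave 788.7 and 990.7 with thrombin, against 469.0 and 541.7 in basal cells. With TRAP it gave 1978.3 and 2387.0, against 1217.8 and 1258.7. With TRAP after PTX it gave 2611.4 and 2152.5, against 1157.2 and 1133.4. The groups did not overlap within any experiment, yet the thrombin-stimulated arrays lay below the basal arrays of both TRAP experiments. The rise was 0.79 ± 0.13 with thrombin (adjusted p = 0.00308), 0.80 ± 0.13 with TRAP (adjusted p = 0.00359) and 1.04 ± 0.13 with TRAP after PTX (adjusted p = 0.000653). The thrombin and TRAP responses differed by -0.01 ± 0.19, with a 95% interval of -0.41 to 0.39. Without thrombin replicate 2 the thrombin value was 0.63 (adjusted p = 0.0533).

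The 2 further probe sets of Zfp36l2 were dim and passed no test in a single response. The brighter of them read 59.1 and 47.8 with thrombin, against 32.8 and 24.9 in basal cells, and its average change over the 3 experiments was 0.53 (adjusted p = 0.0137). The other read between 11.8 and 41.6 on all 12 arrays, and its average change was 0.23 (adjusted p = 0.364). Its change was -0.34 with TRAP and 0.71 with TRAP after PTX (adjusted p = 0.595 and 0.190). With the mean of the 3 probe sets in place of the brightest, the TRAP response of Zfp36l2 was 0.26 (adjusted p = 0.338), and the average response was 0.55 (adjusted p = 0.000333).

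**Figure D2:**
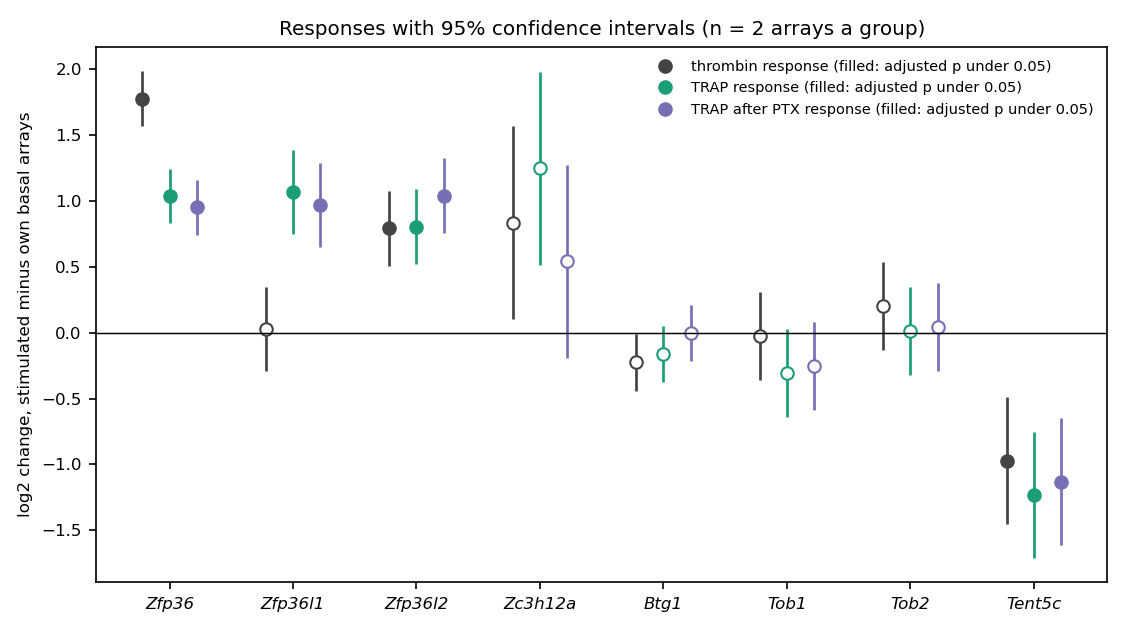
Log2 change of each regulator, stimulated minus own basal arrays, in the thrombin, TRAP and TRAP after PTX experiments; lines are 95% confidence intervals from limma (n = 2 arrays a group), and filled points have an adjusted p under 0.05. The Zfp36 interval with thrombin lies above its other 2, the Zfp36l1 interval with thrombin spans 0, and all 3 Tent5c intervals lie below 0.

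Zc3h12a, the stem-loop endonuclease, was higher on average, but its stimulated replicates in the TRAP experiments were far apart. With thrombin its signal was 220.1 and 244.6, against 117.4 and 129.4 in basal cells. With TRAP it was 227.2 and 83.9, against 52.6 and 46.9. In the PTX experiment stimulated cells gave 100.5 and 214.3, against 104.1 and 89.5, so here the groups overlapped. The high array of each stimulated pair, TRAP replicate 1 and TRAP after PTX replicate 2, was the one with high Saa3. The log2 change was 0.83 ± 0.34 with thrombin (adjusted p = 0.209), 1.25 ± 0.34 with TRAP (adjusted p = 0.0601) and 0.54 ± 0.34 with TRAP after PTX (adjusted p = 0.446). The average of the 3 was 0.87 ± 0.20 (adjusted p = 0.00981). When limma was fitted to the compared arrays alone, the thrombin change passed (adjusted p = 0.0117) and the TRAP change did not (adjusted p = 0.0543). Without TRAP replicate 2 alone, the TRAP value was 1.89 (adjusted p = 0.00547).

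The Zc3h12a values depended on the treatment of these sets. With the set as a block, the log2 change was 0.83 with thrombin (adjusted p = 0.00392), 0.68 with TRAP (adjusted p = 0.0324) and 1.11 with TRAP after PTX (adjusted p = 0.00241). Without the 2 outside arrays, it was 0.60 with TRAP (adjusted p = 0.120) and 1.03 with TRAP after PTX (adjusted p = 0.0166). The order of the TRAP responses with and without PTX was thus the opposite of that over all 12 arrays. The Zfp36 genes were less affected. In these fits Zfp36 rose by 1.08 to 1.11 with TRAP and 0.86 to 0.88 after PTX, Zfp36l1 by 0.85 to 0.86 and 1.18 to 1.19, and Zfp36l2 by 0.94 and 0.90, all past the threshold.

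**Figure D3:**
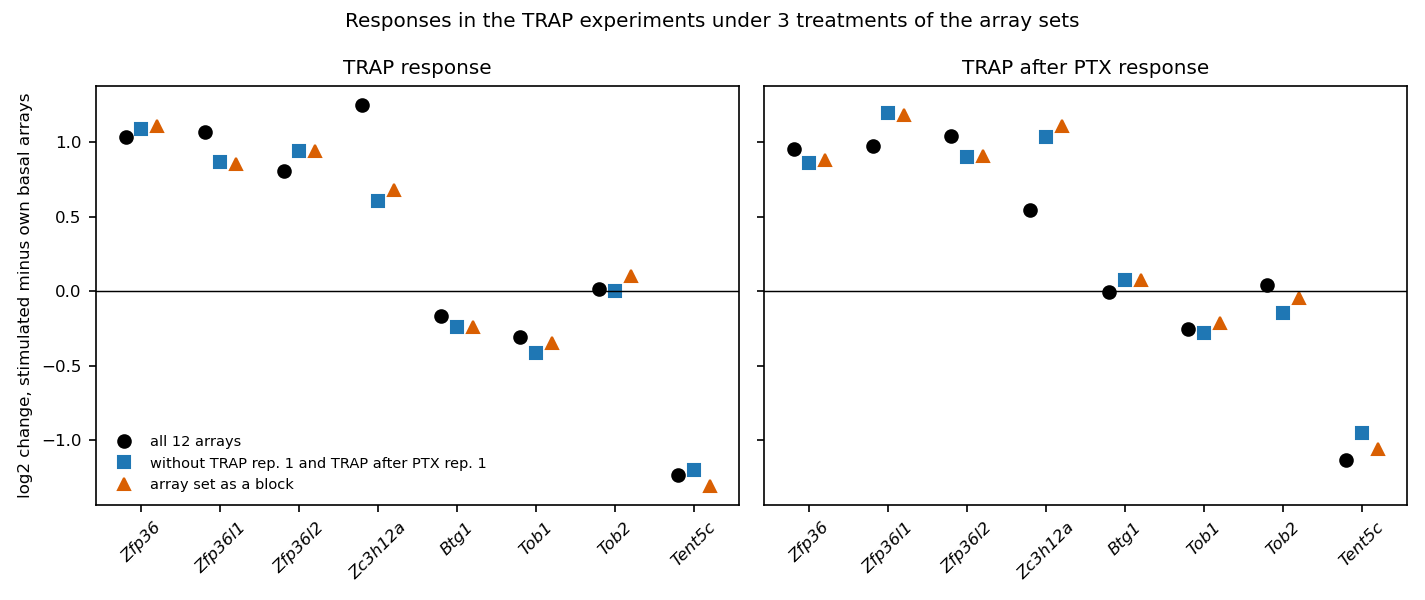
Log2 change of each regulator in the TRAP experiment and the TRAP after PTX experiment over all 12 arrays, with replicate 1 of both stimulated groups left out, and with the set as a block. Zc3h12a lies highest with TRAP over all arrays and moves down there, and up after PTX, under the other treatments; the remaining genes shift less.

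Tent5c, the tail-extending polymerase, known in mouse from plasma cells and germ cells, was the only one of the 8 genes that fell in a single response. Its signal was 35.5 and 38.8 with thrombin, against 99.9 and 77.5 in basal cells. With TRAP it was 15.4 and 16.8, against 53.9 and 65.1. With TRAP after PTX it was 8.4 and 15.3, against 35.8 and 54.7. The groups did not overlap within any experiment, and every stimulated array was below the lowest array median of 39.7, at the dim end of the array. The log2 change was -0.97 ± 0.22 with thrombin (adjusted p = 0.024), -1.23 ± 0.22 with TRAP (adjusted p = 0.00707) and -1.13 ± 0.22 with TRAP after PTX (adjusted p = 0.0161).

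On average Tent5c fell by 1.11 ± 0.13 on the log2 scale (adjusted p = 7.64e-05). The size depends on the pseudocount, with an average of -0.58 at a pseudocount of 64, and the calls in single experiments rest on few arrays. The thrombin call was lost without thrombin replicate 1 (-0.93, adjusted p = 0.151), thrombin replicate 2 (-1.02, adjusted p = 0.114) or basal replicate 1 (-0.82, adjusted p = 0.192), and with a pseudocount of 1 (adjusted p = 0.0606) or no filter (adjusted p = 0.0618). The TRAP call was lost without basal replicate 2 (-1.12, adjusted p = 0.0900). The call after PTX was lost without stimulated replicate 1 (-0.95, adjusted p = 0.132) or basal replicate 2 (-0.91, adjusted p = 0.130), with the compared arrays alone (adjusted p = 0.110), with the array set as a block (-1.06, adjusted p = 0.0508) and without the 2 outside arrays (-0.95, adjusted p = 0.150).

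Btg1, which restrains proliferation and binds the CCR4-NOT deadenylases, was bright and changed little. It read 3535.3 and 3653.7 with thrombin, against 4239.7 and 4175.7 in basal cells, a log2 change of -0.23 ± 0.10 (adjusted p = 0.246). With TRAP it read 5124.3 and 4602.8, against 5100.6 and 5803.6. In the PTX experiment stimulated cells gave 4844.2 and 5373.7, against 5257.6 and 4966.3. The thrombin groups did not overlap, by a small margin relative to the level, and the other 2 pairs of groups did. The thrombin change passed the threshold under quantile normalization (-0.29, adjusted p = 0.0462).

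The antiproliferative adaptors Tob1 and Tob2 did not pass the test in any response or in the average. Tob1 read 855.6 and 1062.7 with thrombin, against 822.0 and 1144.4 in basal cells, and its groups overlapped. It read 775.3 and 665.6 with TRAP, against 921.8 and 866.4, and 655.4 and 631.0 with TRAP after PTX, against 687.9 and 858.3, with both stimulated arrays below both basal ones in each case. Its average change was -0.19 ± 0.09 (adjusted p = 0.179, 95% interval -0.39 to -0.00). Tob2 read 297.2 and 297.8 with thrombin, against 282.1 and 234.2 in basal cells. In both TRAP experiments its groups overlapped, with 171.0 to 225.6 in stimulated and 156.8 to 209.2 in basal cells, and its average change was 0.08 ± 0.09 (adjusted p = 0.599).

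No regulator passed the test of a difference between the TRAP responses with and without PTX. By the brightest probe set of each gene, 0 of the 8 were called in limma in either direction, and 0 had an unadjusted p under 0.05. A dim further probe set of Zfp36l2 was at 1.05 ± 0.38, with a limma unadjusted p of 0.0151 (adjusted p = 0.438). Over all genes 0.0909% were called higher after PTX and 0% lower, beside 367 and 352 genes with an unadjusted p under 0.05. The difference, PTX minus no PTX, was -0.09 for Zfp36 (95% interval -0.38 to 0.21), -0.10 for Zfp36l1 (-0.55 to 0.35), 0.24 for Zfp36l2 (-0.16 to 0.64) and 0.10 for Tent5c (-0.58 to 0.78). Differences in either direction lie within each of these intervals. Under both treatments of the array sets the sign turned for Zfp36l1 (0.33), Zfp36l2 (-0.04), Tob2 (-0.14, against 0.03 over all arrays) and Zc3h12a (0.43, against -0.71 over all arrays), and none of these passed the test. The interval of Zc3h12a was the widest of the 5, at -1.74 to 0.33.

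The basal levels of 6 of the 8 genes differed among the 3 experiments by limma's F test, where 41.5% of all genes did. Zfp36l2 differed most by adjusted p (7.12e-06), with basal signals of 469.0 and 541.7 in the thrombin experiment, 1217.8 and 1258.7 in the TRAP experiment and 1157.2 and 1133.4 in the PTX experiment. Zfp36l1 (adjusted p = 0.00218) had the reverse order, with its highest basal signals in the thrombin experiment. The others were Btg1 (adjusted p = 0.019), Tent5c (adjusted p = 0.0321), Zc3h12a (adjusted p = 0.0456) and Tob2 (adjusted p = 0.0468). For Zfp36 and Tob1 the adjusted p was 0.0809 and 0.216. Basal group and experiment cannot be told apart, and the share of regulators is to be read against the large share of all genes.

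The machinery that these regulators act through gave few calls, and over all genes 5.62% were called with thrombin, 3.96% with TRAP, 2.96% with TRAP after PTX and 14.8% in the average, so lists of this size allow no reading of a low count. Among 10 tested subunits of CCR4-NOT, 0 were called in limma in any single response, with 1 or 2 at an unadjusted p under 0.05 in each, and the list medians were -0.02, -0.01 and -0.02. In the average 3 of the 10 were called: Cnot6, a catalytic subunit, was higher by 0.20, and Cnot2 and the catalytic subunit Cnot8 were lower, both at -0.23. None of 14 tested exosome genes was called in a single response either, with 4, 1 and 2 at an unadjusted p under 0.05. In the average Skic3 was called lower, at -0.28. Of 15 tested genes of decapping, Edc3, an enhancer of decapping, rose with TRAP (0.56, adjusted p = 0.0106) and with TRAP after PTX (0.52, adjusted p = 0.0247). With thrombin Edc3 was at -0.20 (adjusted p = 0.361), and its thrombin response differed from its TRAP response by -0.77 (adjusted p = 0.0457). The helicase Ddx6 fell with TRAP (-0.67, adjusted p = 0.0234) and was at 0.46 after PTX (adjusted p = 0.140). Its difference, PTX minus no PTX, was 1.13 and was not called (adjusted p = 0.0631 by limma's interaction term). Dcp1b, on the same list, was called lower in the average alone (-0.38).

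Among 16 other deadenylases and poly(A) tail factors, 2 rose and 1 fell with thrombin, where 2.97% of all genes rose and 2.65% fell. Noct, a relative of the CCR4 deadenylases that now counts as a metabolic phosphatase, rose in each response. Its mean signal was 1239 with thrombin, against 165.8 in basal cells. With TRAP it was 607, against 91.85, and with TRAP after PTX 574.3, against 93.6. Both other Tent5 genes on this list passed the test with thrombin, in opposite directions. Tent5a, a paralog of Tent5c, averaged 140.1 with thrombin, against 347.2 in basal cells, and fell by 1.22 on the log2 scale (adjusted p = 0.000533). It also fell with TRAP after PTX (-0.70, adjusted p = 0.0345), and was at -0.56 with TRAP (adjusted p = 0.0711). Tent5b averaged 617.3 with thrombin, against 304.9 in basal cells, a rise of 0.99 (adjusted p = 0.000249). It was at 0.22 with TRAP (adjusted p = 0.392) and -0.04 with TRAP after PTX (adjusted p = 0.892). The thrombin minus TRAP difference was not called for Tent5a (adjusted p = 0.292) or Tent5b (adjusted p = 0.0631).

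Of 20 other RNA-binding regulators of stability, 3 rose and 0 fell with thrombin, where 2.97% of all genes rose and 2.65% fell. They were Mex3c (0.74, adjusted p = 0.0218), a ubiquitin ligase that binds RNA, Arid5a (0.78, adjusted p = 0.0479), which protects inflammatory transcripts against Regnase-1, and Igf2bp2, which binds and stabilises transcripts (0.63, adjusted p = 0.0298). Rc3h1 (Roquin), which represses stem-loop transcripts like those of Zc3h12a, rose with TRAP (0.56, adjusted p = 0.00809). With thrombin Rc3h1 was at 0.30, and with TRAP Mex3c was at 0.48, Arid5a at 0.66 and Igf2bp2 at -0.05, none of them called. For none of these genes was the thrombin minus TRAP difference called (adjusted p = 0.232 to 0.942 by limma's interaction term). Mex3c, Arid5a and Rc3h1 were called higher in the average. Of 11 genes of nonsense-mediated decay, Smg9, a partner of the kinase Smg1, rose with thrombin (0.67, adjusted p = 0.0453). It was at 0.19 with TRAP (adjusted p = 0.668), and the difference was not called (adjusted p = 0.562). A list of 9 kinases, phosphatases and partner proteins of the TTP pathway included Dusp1, which switches off p38. Dusp1 rose with thrombin (0.87, adjusted p = 0.0185) and was at -0.39 with TRAP (adjusted p = 0.336). The difference was not called (adjusted p = 0.0595). Mapkapk2, on the same list, was called higher in the average alone (0.28). The 1 tested BTG/TOB paralog was not called.

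Part of the transcripts known as TTP-family targets rose in the same cells. Of 25 listed, 15 were tested, and 8 rose with thrombin, 7 with TRAP and 4 with TRAP after PTX, while 0 fell in limma, with 1, 1 and 3 lower at an unadjusted p under 0.05. Of all genes 2.97%, 2.15% and 1.69% rose. The list medians were 0.87, 1.17 and 0.37. Ptgs2, the inducible cyclooxygenase, averaged 3466 with thrombin, against 408.7 in basal cells, 3551 with TRAP, against 998.2, and 2499 with TRAP after PTX, against 1092. Plaur, the urokinase receptor, averaged 1551 with thrombin, against 298.7, and 913 with TRAP, against 226.2. The chemokine Cxcl1 averaged 4924 with thrombin, against 1482, which did not pass the test (1.72 ± 0.60, adjusted p = 0.131). It averaged 3344 with TRAP, against 83, and 3756 with TRAP after PTX, against 436.3, and rose in both (adjusted p = 0.000449 and 0.0335). The list was drawn up with earlier results of these data known, and 1 time point cannot separate transcription from decay.

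**Figure D4:**
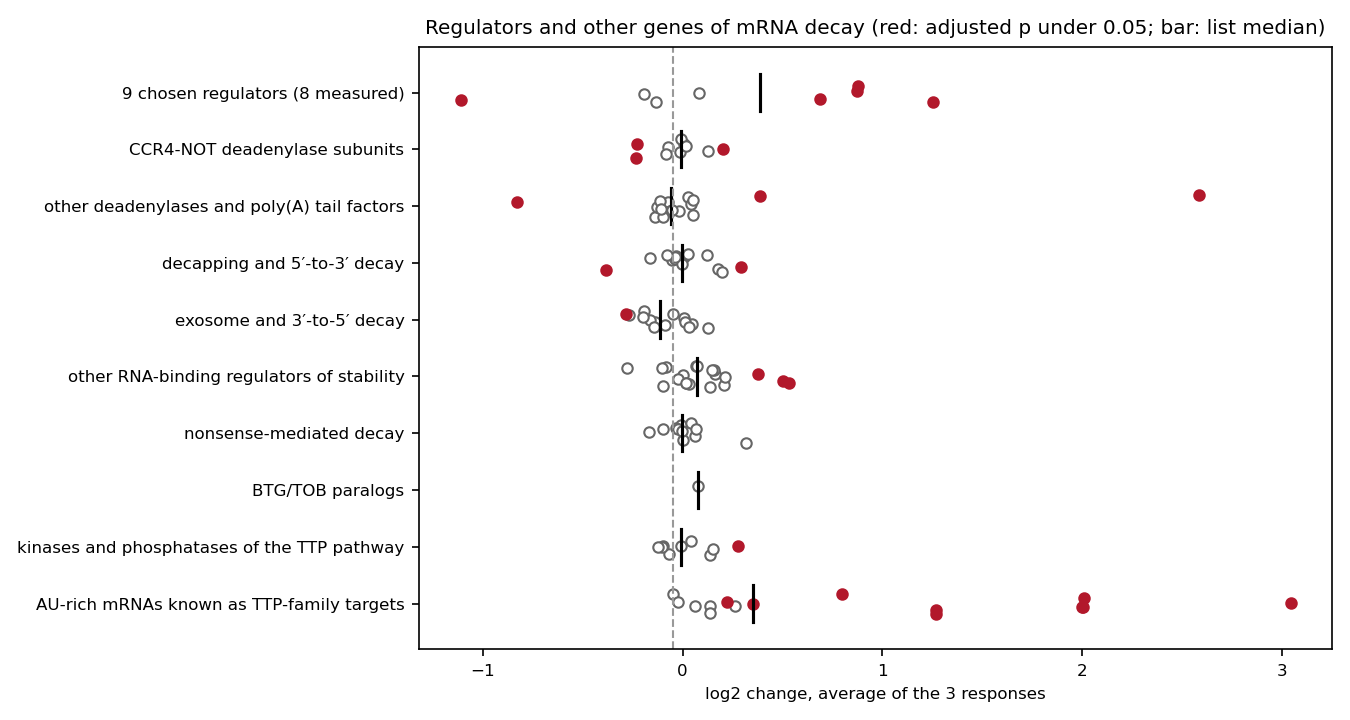
Average log2 change over the 3 responses for each tested gene of the 9 regulators chosen and of 9 lists of mRNA decay genes and targets; points are genes, filled red where the adjusted p is under 0.05, short bars are list medians and the dashed line is the median of all genes at -0.05. Most points of the deadenylase, exosome and nonsense-mediated decay lists lie near the dashed line, and the points furthest from it include Noct, Tent5c and the TTP-family targets.

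Genes whose signals were most like each regulator were found by Pearson correlation over the 12 arrays after the mean of each experiment was subtracted. This is a description: the points share arrays, and any gene with a response to the same stimuli will correlate. For Zfp36 they were Adamts1, a matrix protease (r = 0.993), Hbegf, a ligand of the EGF receptor (0.99), and Ptgs2 (0.99). For Zfp36l1 they were Nfe2l2, the factor of the oxidative stress response (0.97), Ipmk (0.964) and Tiparp (0.962). For Zfp36l2 they were Gss, glutathione synthetase (0.982), C9h6orf141 (0.972) and the kinase Sgk1 (0.971). For Zc3h12a they were Nfkbia, the inhibitor of NF-kB (0.971), Ier3 (0.97) and Ptgs2os (0.956). For Tent5c they were Cep57l1 (0.98), Thap4 (0.974) and C15h8orf58 (0.968). The best values were lower for Btg1 (Urm1, 0.934), Tob1 (Rcbtb1, 0.955) and Tob2 (Sh3bp1, 0.896).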

How the data were processed

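RNA of 12 samples of rat aortic smooth muscle cells was hybridised to 1-colour Affymetrix arrays. The authors deposited 1 linear intensity per probe set and array, from GCOS 1.4 per the submitters' processing notes. The values show each array scaled to a mean of 200.1 after trimming 2% at both ends. Detection calls were not used here, and the genome build was not given in the sources used here.

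Signals were taken as log2(signal + 16). After removal of 57 control probe sets, 18625 whose mean log2 signal exceeded the 40th percentile were kept. Of the probe sets, 20826 have exactly 1 symbol in the array annotation, 436 several and 9780 none. Symbols were checked by Entrez number (20764 matched, 0 changed). The brightest kept probe set stands for a gene, which gives 9906 genes.

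The 6 groups shared 1 model in limma 3.58.1 (R 4.3.3) (eBayes with an intensity trend, 6 residual and 7.5 prior degrees of freedom), 2-sided. The median SE of a change was 0.16 on the log2 scale, and the number of arrays limits the precision. Tested were the 3 responses, stimulated minus own basal arrays, their average, the difference of the thrombin and TRAP responses, that of the TRAP responses with and without PTX, and basal groups by an F test. The alternatives changed the pseudocount, the filter, the scaling or the trend, or used a replicate block, the compared arrays alone, the mean of probe sets and each array left out. Where that leaves 1 array in a group, its spread is taken from the other groups.

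All 9 regulators were to be named, with up to 4 called genes of each of 9 lists of related genes (138 genes) and the 3 genes most like each regulator. Regulators and lists were chosen with earlier results of these data known. Some genes called in the average response alone (Cnot6, Cnot2, Cnot8, Dcp1b, Skic3, Mapkapk2) and Saa3 were named after their values were seen.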

Additional observations from a re-analysis of the deposited data

Results flagged for a closer look

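Responses of 2 regulators differed between stimuli by a test of the difference itself. The Zfp36 response to thrombin was above its response to TRAP by 0.74 on the log2 scale (adjusted p = 0.0275, limma interaction term), with both responses upward. The Zfp36l1 response to thrombin was below its response to TRAP by a difference of -1.04 (adjusted p = 0.0457, same test). Neither call held with no intensity trend or with the replicate block. Thrombin and TRAP arrays come from experiments with separate basal arrays, and stimulus and experiment cannot be told apart.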

How the results depend on the processing

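Each value was recomputed under 10 other settings, with each of the 12 arrays left out, and with 2 treatments of the array sets that were chosen after seeing the data. Of 1146 recomputed values of single regulators, 36 lost a call, 15 gained one and 0 reversed a called change. Zfp36 kept its call in the 3 responses and their average under all of these, as did Zfp36l1 in both TRAP responses and the average. Zfp36l2 kept its call with TRAP after PTX and in the average, and Zc3h12a in the average. Tent5c kept its call in the average wherever it passed the filter.

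The number of regulators called with thrombin, 3, ranged over 1 to 3 when 1 array was left out. For thrombin minus TRAP it was 2, and 1 with a pseudocount of 1, with no filter or without the 2 arrays outside their set, 0 with no intensity trend or with the replicate block, and 0 to 2 with 1 array left out. For the basal groups it was 6, and 3 with no filter or no trend, and 3 to 6 with 1 array left out. Counts for TRAP, TRAP after PTX, the average and PTX stayed within 1.5 times of the main count. The causes were not tested.

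Arrays with the same replicate number deviated together at r = 0.134, 0.104 and 0.022 in the thrombin, TRAP and TRAP after PTX experiments. These values cannot decide whether such arrays were paired, and the labels give only a number. With the replicate block, 5 regulators were called with TRAP, Zc3h12a among them (adjusted p = 0.0367), beside 4.06% of all genes.

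Over all genes, the thrombin count of 557 was 366 with the compared arrays alone and as low as 227 without 1 array. TRAP calls numbered 392 and went as low as 134, and calls after PTX numbered 293 and went as low as 99. Centring on the median moved the share of called genes that rose to 66.9% with thrombin, 71.5% with TRAP, 73.5% after PTX and 61.5% on average, against 52.8%, 54.3%, 57% and 39.2%.

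The limits are 2 arrays a group, 1 time point, 1 dose, and dim signals for Tent5c, which the filter at the 60th percentile removed.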
